A study of Mus musculus with 6 samples.

Results

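Splicing factor genes were examined in cells of mouse skin squamous cell carcinoma, a tumour of keratinocytes induced by DMBA, a mutagen, followed by TPA, which promotes tumour growth. The members were the protein-coding genes whose symbols begin with Srsf and a digit, Hnrnp, Sf3a or Sf3b and a digit, or Snrp. The rule reads names only, though it was set with earlier results of these data known, and it gave 52 of the 21834 protein-coding genes in the table, which held 55481 genes and other entries. The tested cells were Itga6hi CD80pos, with high integrin alpha 6 and the co-stimulatory ligand CD80, which the series text names stem-like. The cells they were set against were Itga6low CD80neg, which the series text names differentiated. Both came from DMBA/TPA tumours and each had 2 libraries of polyA RNA; the Itga6hi CD80neg samples, which the labels also list, were not analysed here. The labels give no strain, age, sex or genotype, do not say whether the 2 replicates came from separate animals, and name no gate beyond Itga6 and CD80. The p-values therefore measure only the spread between these libraries, which may be technical.

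Splicing removes introns from transcripts in the nucleus. Small nuclear ribonucleoproteins (snRNPs) recognise the ends of each intron, and most hold an RNA ringed by Sm proteins. The Snrp genes encode Sm proteins and some proteins of the U1 and U2 snRNPs. SF3a and SF3b are protein complexes of the U2 snRNP that hold it at the branch point. SR proteins (Srsf genes) mostly promote the use of nearby exons, hnRNP proteins often oppose it, and the balance between them shifts which exons are kept. Dividing and tumour cells are known for high levels of many of these factors. The data give the level of each gene's RNA and hold no measure of splicing itself.

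Levels are TPM, a value corrected for transcript length and scaled to the same total in each library. Haemoglobin RNA made up 0.0185% and 0.00621% of the deposited TPM in Itga6hi CD80pos libraries, against 70.9% and 50.4% in Itga6low CD80neg libraries. Haemoglobin genes were therefore left out of the total and the rest rescaled to 1000000, which multiplied the Itga6low CD80neg values by 3.44 and 2.02. Itga6 stood at 178 and 339 TPM in Itga6hi CD80pos, against 5.15 and 3.33 TPM in Itga6low CD80neg. Cd80 stood at 6.24 and 1.89 TPM in Itga6hi CD80pos, against 2.21 and 1.14 TPM in Itga6low CD80neg, so the groups overlapped for the second gene that names them. Markers of several cell types differed between the groups, and those of fibroblasts and red cells were abundant in Itga6low CD80neg, which the series text calls cancer cells. All 9 fibroblast markers summed to 92.1 and 69.7 TPM in Itga6hi CD80pos, against 30659 and 11199 TPM in Itga6low CD80neg, and 8 of them were lower, led by Col3a1. The 8 keratinocyte markers summed to 48887 and 49402 TPM in Itga6hi CD80pos against 6882 and 12108 TPM in Itga6low CD80neg, with Krt14 the most abundant and 5 higher. Red cell markers other than haemoglobin, such as the heme enzyme Alas2, summed to 13.9 and 8.08 TPM in Itga6hi CD80pos against 8720 and 3017 TPM in Itga6low CD80neg. Of 12 markers of dividing cells, 11 were higher and only Pcna was not called, with sums of 989 and 819 TPM in Itga6hi CD80pos against 167 and 223 TPM in Itga6low CD80neg. Markers of leukocytes and of melanocytes, the latter led by Dct, were also more abundant in Itga6low CD80neg. The leukocyte markers summed to 2.42 and 2.48 TPM in Itga6hi CD80pos against 25.5 and 91.8 TPM in Itga6low CD80neg. The melanocyte markers summed to 1.18 and 1.26 TPM in Itga6hi CD80pos against 83.4 and 236 TPM in Itga6low CD80neg. The part of these differences in the results below was not tested. In such bulk samples, fewer cells of a type and less RNA per cell cannot be told apart.

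Most splicing factor genes had higher TPM in the Itga6hi CD80pos libraries with haemoglobin left out, although a minority passed the test. As a whole the 52 genes took up 0.958% and 0.835% of TPM in Itga6hi CD80pos, against 0.527% and 0.521% in Itga6low CD80neg. Of the 51 tested, 18 rose and 0 fell by limma (lmFit and eBayes with a trend on log2(TPM + 1), two-sided, Benjamini-Hochberg adjusted p under 0.05 over 14572 genes). That is 35.3% higher, where 7.48% of all tested genes were higher and 12.1% were lower. Among the members, 33 had an unadjusted p under 0.05 on the higher side, where 17.4% of all tested genes did, and 5 on the lower side, where 21% of all tested genes did. Both Itga6hi CD80pos libraries lay above both Itga6low CD80neg libraries for 42 of 51 members, or 82.4%, where 35.4% of all tested genes did. Both lay below for 5 members, where 32.3% of all tested genes did, and 4 members overlapped. The log2 fold change was above 0 for 45 members, where it was for 52.8% of all tested genes. Its median over the tested members was 0.93, against 0.08 for all tested genes. Srsf12, listed at 0.347 and 0.165 TPM in Itga6hi CD80pos against 1.16 and 0.160 TPM in Itga6low CD80neg, was below the filter of 1 TPM in at least 2 libraries. Snrpn passed that filter only through Itga6low CD80neg, and the other 50 tested members stood at 8.54 TPM or more in every library.

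**Figure D1:**
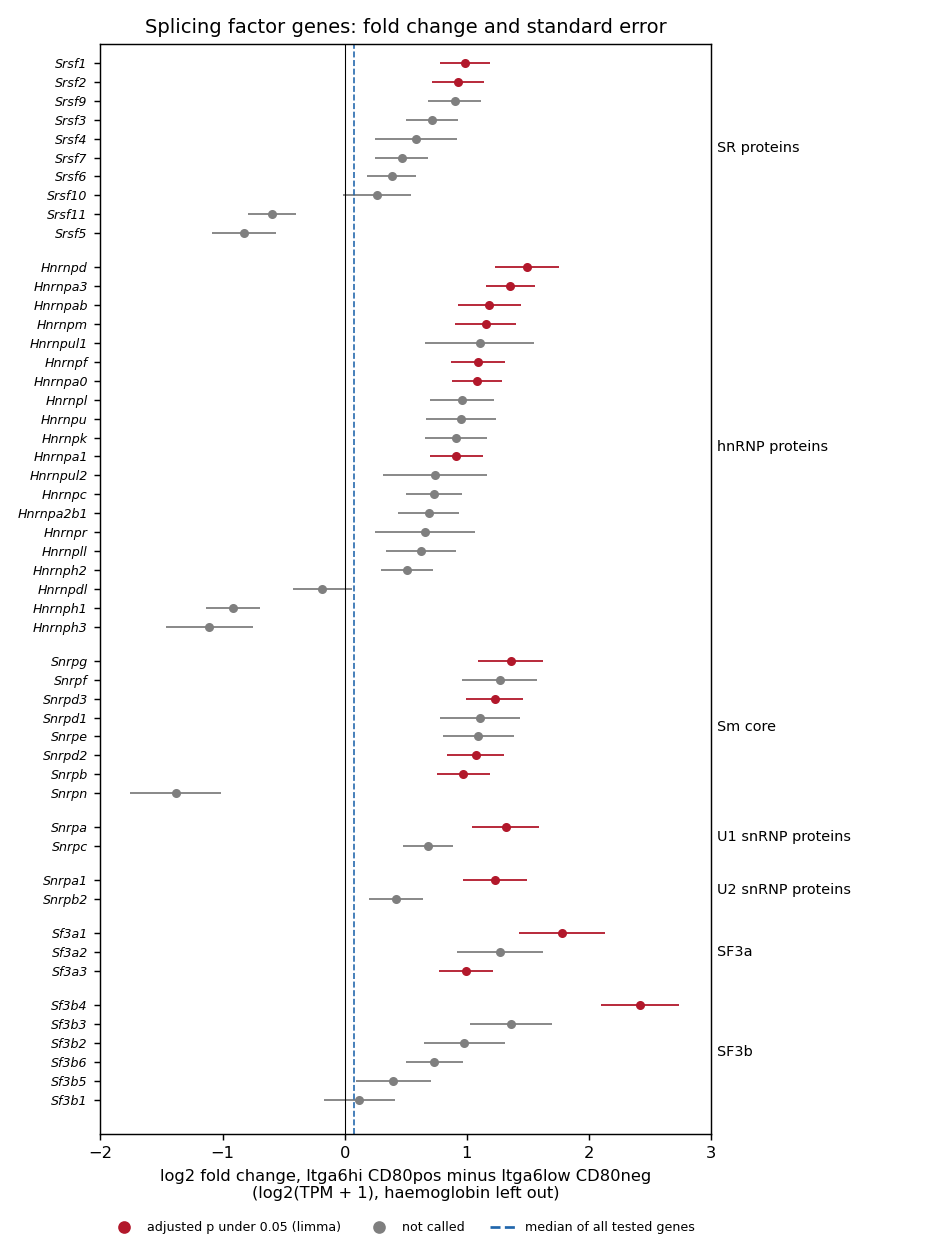
Log2 fold change of each tested splicing factor gene (points; x axis, Itga6hi CD80pos minus Itga6low CD80neg on log2(TPM + 1) with haemoglobin left out), with the standard error as a bar and the families one below another. The 18 genes called higher are red, 33 are not called, and 45 of 51 points lie above 0, where 52.8% of all tested genes did.

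The count depended on the libraries and on the scaling. Without either Itga6hi CD80pos library limma called 0 members and 0% of all tested genes; these fits take the spread from the Itga6low CD80neg pair alone. At an unadjusted p under 0.05, 4 of 51 members were higher without replicate 1, near the 5.35% of all tested genes, and 15 of 51 without replicate 2, where 7.2% of all tested genes were. Without Itga6low CD80neg replicate 1 the median log2 fold change of the members was 0.90, against 0.21 for all tested genes. Without Itga6low CD80neg replicate 2 it was 0.79 against -0.13. These fits take the spread from the Itga6hi CD80pos pair alone, and in each some of the 18 were no longer called. Hnrnpa1, Snrpb, Snrpd3 and Srsf2 lost their calls whichever library was left out. These limits hold for every call given below. On TPM as deposited 45 members were higher, where the median of all genes was itself 1.27 and 57% of them were higher. Over all genes, 1090 were higher and 1765 lower with haemoglobin left out, against 7686 and 1277 on TPM as deposited, 1592 and 1505 after quantile normalization, and 1908 and 1868 with mitochondrial, ribosomal protein and keratin genes left out as well. Under all 5 scalings tried 8 members were higher (Hnrnpa0, Hnrnpa3, Hnrnpd, Hnrnpm, Sf3a1, Sf3b4, Snrpa and Snrpd3), where 6.84% of the genes that all 5 hold were. Among the 18 called with haemoglobin left out, Snrpd2 and Snrpa1 were higher under only 3 scalings. Hnrnpl, Sf3a2, Sf3b3 and Srsf9, which are not among the 18, were higher under 4. With 2 libraries in each group the smallest p of an exact two-sided permutation test is 0.333, so none is given for single genes.

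**Figure D2:**
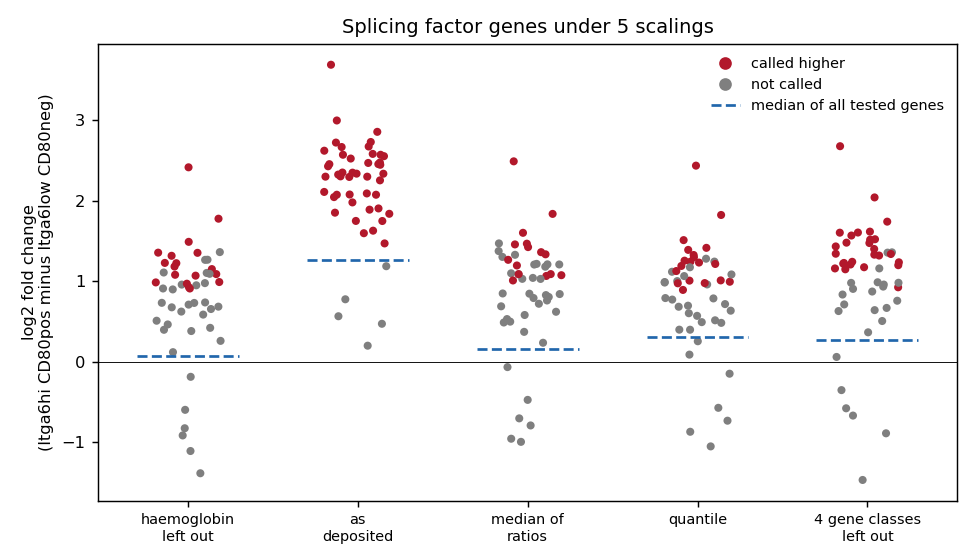
Log2 fold changes of the tested splicing factor genes (points; y axis, Itga6hi CD80pos minus Itga6low CD80neg) under 5 scalings, with calls in red and the median of all tested genes as a dashed line. The members' median lies above that line under each scaling, by 0.93 against 0.08 with haemoglobin left out and by 2.30 against 1.27 as deposited.

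The DNA before the start of 4 members is shown as examples of genes that stood apart, chosen after their values were seen. Sf3a1, Hnrnpa3 and Hnrnpd were higher under all 5 scalings, and Srsf5 had lower values in Itga6hi CD80pos. Each is the 250 bases before the first listed start of the gene, 5′ to 3′ on the strand of the gene (RefSeq, GRCm38.p6). Capitals mark, on either strand, the GC box (GGGCGG), the ETS core (CCGGAAG), the CCAAT box (CCAAT), the CRE core (TGACGT) and the E-box (CACGTG).
Sf3a1 (chr11:4160104-4160353, plus strand): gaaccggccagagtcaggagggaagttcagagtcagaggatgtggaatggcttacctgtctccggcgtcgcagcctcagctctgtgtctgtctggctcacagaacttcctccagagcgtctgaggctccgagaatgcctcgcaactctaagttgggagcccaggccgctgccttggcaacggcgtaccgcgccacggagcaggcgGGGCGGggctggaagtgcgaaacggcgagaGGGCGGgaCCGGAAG
Hnrnpa3 (chr2:75659009-75659258, plus strand): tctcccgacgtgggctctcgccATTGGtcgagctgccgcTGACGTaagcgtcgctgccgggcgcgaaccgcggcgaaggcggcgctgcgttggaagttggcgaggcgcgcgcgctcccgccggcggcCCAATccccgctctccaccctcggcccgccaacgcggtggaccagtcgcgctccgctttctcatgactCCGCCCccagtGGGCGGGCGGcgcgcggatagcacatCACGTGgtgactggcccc
Hnrnpd (chr5:99978939-99979188, minus strand): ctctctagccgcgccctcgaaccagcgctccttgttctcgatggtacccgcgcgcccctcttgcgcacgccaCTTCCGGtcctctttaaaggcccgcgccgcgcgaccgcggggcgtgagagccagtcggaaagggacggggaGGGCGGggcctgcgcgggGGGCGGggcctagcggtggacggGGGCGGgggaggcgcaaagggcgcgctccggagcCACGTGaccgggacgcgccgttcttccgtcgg
Srsf5 (chr12:80945249-80945498, plus strand): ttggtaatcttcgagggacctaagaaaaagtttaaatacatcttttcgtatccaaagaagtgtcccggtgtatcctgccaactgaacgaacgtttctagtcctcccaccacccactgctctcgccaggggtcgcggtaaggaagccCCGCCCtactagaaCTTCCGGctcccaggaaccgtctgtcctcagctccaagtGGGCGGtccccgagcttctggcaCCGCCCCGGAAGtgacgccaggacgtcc
Sf3a1 has 2 GC boxes and an ETS core at the very end of the window, Hnrnpa3 has 3 GC boxes, of which 2 overlap, with 2 CCAAT boxes, 1 CRE core and 1 E-box, and Srsf5 has 3 GC boxes and 2 ETS cores, of which 1 overlaps a GC box. Hnrnpd has 3 GC boxes, 1 ETS core and 1 E-box. Windows follow the RefSeq start, and where GENCODE M21 starts a gene further out, a window can lie partly or wholly within the gene. Among the 46 members with such a window, 69.6% hold a GC box, 32.6% an ETS core and 19.6% a CRE core. Over the first listed windows of 17491 protein-coding genes these shares were 42.7%, 9.12% and 7.56%. The CCAAT box was held by 45.7% of members against 36.3% of coding genes, the E-box by 6.52% against 6.64% and the TATA box (TATAAA) by 10.9% against 12.4%. An ETS core was present in 5 of the 16 higher members with a window and in 2 of the 6 members with a log2 fold change below 0. The 3 members with an E-box are all among the 16 higher ones, as are 3 of the 5 members with a TATA box. Whether any motif goes with the fold change was not tested. The table has no window for Hnrnpll, Hnrnpul2, Sf3b4, Sf3b5, Snrpb and Snrpd1. A match of letters describes the sequence and shows no bound factor.

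Sm proteins form the ring that is shared by most spliceosomal snRNPs. Of their 8 genes, 7 had non-overlapping higher values in Itga6hi CD80pos, where 35.4% of all tested genes did. Of the 8 tested, 4 rose (Snrpb, Snrpd2, Snrpd3 and Snrpg) and 0 fell, where 7.48% and 12.1% of all tested genes did. The median log2 fold change of the 8 was 1.10. Snrpg, the smallest subunit of the ring, stood at 332 and 293 TPM in Itga6hi CD80pos, against 101 and 145 TPM in Itga6low CD80neg. The groups did not overlap, and its log2 fold change was 1.36 ± 0.26 (SE; limma adjusted p = 0.0344). Snrpd3 stood at 170 and 131 TPM in Itga6hi CD80pos, against 60.4 and 65.8 TPM in Itga6low CD80neg. It was the Sm gene called under every scaling, at 1.23 ± 0.23 (SE; limma adjusted p = 0.0328). With any single library left out, however, Snrpd3 was not called. Snrpb, which encodes the SmB proteins, stood at 314 and 258 TPM in Itga6hi CD80pos against 139.6 and 150.1 TPM in Itga6low CD80neg, and Snrpd2 at 151 and 138 TPM in Itga6hi CD80pos against 59.5 and 77.9 TPM in Itga6low CD80neg. Snrpd1, Snrpe and Snrpf had similar differences without passing (adjusted p = 0.0763, 0.0608 and 0.0510). The sum over the 8 genes was 1586 and 1372 TPM in Itga6hi CD80pos, against 571 and 775 TPM in Itga6low CD80neg.

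Snrpn, the paternally expressed SmN gene that stands in for SmB in brain, was not called and passed the filter only through Itga6low CD80neg. It stood at 0.472 and 0.158 TPM in Itga6hi CD80pos, against 3.29 and 1.71 TPM in Itga6low CD80neg, with adjusted p = 0.0622. Within a library it amounted to 0.00150 and 0.000612 of the Snrpb level in Itga6hi CD80pos, against 0.0235 and 0.0114 in Itga6low CD80neg. Snrpn shares exons with the protein-coding gene Snurf on the same strand (chr7:59982495-60140219, GRCm38), and reads of the pair were not resolved here.

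Of the proteins that belong to a single snRNP, Snrpa of U1, whose protein binds a stem loop of U1 RNA, and Snrpa1 of U2 rose. Snrpa stood at 128 and 122 TPM in Itga6hi CD80pos, against 61.0 and 40.1 TPM in Itga6low CD80neg (log2 fold change 1.32 ± 0.28, SE; limma adjusted p = 0.0386; called under all 5 scalings). Snrpa1 stood at 93.9 and 75.8 TPM in Itga6hi CD80pos, against 30.7 and 40.8 TPM in Itga6low CD80neg (1.23 ± 0.26, SE; limma adjusted p = 0.0397). Their partners Snrpc of U1 and Snrpb2 of U2 were not called: Snrpc stood at 155 and 137 TPM in Itga6hi CD80pos against 87.5 and 94.2 TPM in Itga6low CD80neg, and Snrpb2 at 47.5 and 45.7 TPM in Itga6hi CD80pos against 32.9 and 36.2 TPM in Itga6low CD80neg. In all 4 genes both Itga6hi CD80pos libraries lay above both Itga6low CD80neg libraries, where 35.4% of all tested genes did.

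The SF3a and SF3b subunits were unequal. All 3 SF3a genes had higher values in Itga6hi CD80pos and 2 of them rose, where 7.48% of all tested genes rose. Sf3a1 (chr11:4160350-4182541, plus strand, GRCm38) stood at 44.5 and 38.0 TPM in Itga6hi CD80pos, against 14.8 and 8.54 TPM in Itga6low CD80neg. Its log2 fold change was 1.78 ± 0.35 (SE; limma adjusted p = 0.0351). Sf3a3 stood at 56.6 and 50.9 TPM in Itga6hi CD80pos against 26.3 and 26.7 TPM in Itga6low CD80neg (adjusted p = 0.0440), and Sf3a2 at 63.2 and 50.9 TPM in Itga6hi CD80pos against 30.5 and 17.2 TPM in Itga6low CD80neg without passing (0.0678). Sf3b4 (chr3:96172332-96177564, plus strand), a subunit that contacts the RNA near the branch point, had the highest fold change of the 51 tested members. It stood at 99.6 and 91.2 TPM in Itga6hi CD80pos, against 22.2 and 13.0 TPM in Itga6low CD80neg, a log2 fold change of 2.42 ± 0.32 (SE; limma adjusted p = 0.0189). Each Itga6hi CD80pos library was thus more than 4 times the higher Itga6low CD80neg library. Sf3b1, the largest subunit and a gene often mutated in blood cancers, overlapped between groups at 60.8 and 47.7 TPM in Itga6hi CD80pos against 59.5 and 41.1 TPM in Itga6low CD80neg (0.12 ± 0.29, SE; adjusted p = 0.793). The other 4 SF3b genes, Sf3b2, Sf3b3, Sf3b5 and Sf3b6, had log2 fold changes between 0.40 and 1.36 and were not called, with adjusted p = 0.0527 for Sf3b3. Of the 5 scalings, Sf3b3 was called higher under 4, Sf3b2 under 3, and Sf3b1, Sf3b5 and Sf3b6 under 1 each. Sf3b1 was 0.610 and 0.523 times the level of Sf3b4 in Itga6hi CD80pos, against 2.68 and 3.16 times in Itga6low CD80neg. Such a ratio of TPM within a library does not depend on the total or on haemoglobin.

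hnRNP proteins coat transcripts as they are made. Of the 20 genes, 16 had non-overlapping higher values in Itga6hi CD80pos, where 35.4% of all tested genes did. Of the 20, 7 rose and 0 fell, where 7.48% and 12.1% of all tested genes did. The median log2 fold change of the 20 was 0.91. They were the most abundant family, at 5369 and 4675 TPM in Itga6hi CD80pos, against 2881 and 2742 TPM in Itga6low CD80neg. Hnrnpd, which encodes the mRNA decay factor AUF1, stood at 245 and 193 TPM in Itga6hi CD80pos, against 89.3 and 65.8 TPM in Itga6low CD80neg (1.49 ± 0.26, SE; limma adjusted p = 0.0288). Hnrnpa3 stood at 245 and 219.6 TPM in Itga6hi CD80pos, against 90.4 and 89.8 TPM in Itga6low CD80neg (1.35 ± 0.20, SE; limma adjusted p = 0.0217). Both were called under every scaling, as were Hnrnpa0 (231 and 219 TPM in Itga6hi CD80pos against 113.9 and 97.8 TPM in Itga6low CD80neg) and Hnrnpm (242 and 205 TPM in Itga6hi CD80pos against 115 and 86.0 TPM in Itga6low CD80neg). Hnrnpab, Hnrnpf and Hnrnpa1 also rose. Hnrnpab stood at 711 and 759 TPM in Itga6hi CD80pos, the highest of the 20 genes there in the second library, against 277 and 375 TPM in Itga6low CD80neg. Hnrnpa1, which represses many exons, stood at 462 and 395 TPM in Itga6hi CD80pos against 221 and 232 TPM in Itga6low CD80neg, close to the threshold (adjusted p = 0.0492). The abundant Hnrnpa2b1 and Hnrnpk, at 682 and 539 TPM in Itga6hi CD80pos against 404 and 351 TPM in Itga6low CD80neg and at 714 and 564 TPM in Itga6hi CD80pos against 313 and 362 TPM in Itga6low CD80neg, did not overlap between groups and were not called (adjusted p = 0.1197 and 0.0660).

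Of the F/H members, which bind runs of G, Hnrnpf was called and Hnrnph1, Hnrnph2 and Hnrnph3 were not. Hnrnpf rose, at 503 and 481 TPM in Itga6hi CD80pos, against 209.6 and 254 TPM in Itga6low CD80neg (1.09 ± 0.22, SE; limma adjusted p = 0.0376). Hnrnph1 (chr11:50376990-50386528, plus strand) stood at 142 and 122 TPM in Itga6hi CD80pos, against 269.9 and 231 TPM in Itga6low CD80neg. Both Itga6hi CD80pos libraries were below both Itga6low CD80neg libraries, and the log2 fold change of -0.91 ± 0.22 (SE) had limma adjusted p = 0.0502. Hnrnph3 stood at 13.0 and 9.15 TPM in Itga6hi CD80pos against 29.8 and 20.4 TPM in Itga6low CD80neg (-1.11 ± 0.36, SE; adjusted p = 0.0912), and Hnrnph2, on the X chromosome, at 61.1 and 62.3 TPM in Itga6hi CD80pos against 45.1 and 41.0 TPM in Itga6low CD80neg (adjusted p = 0.151). On TPM as deposited the differences of Hnrnph1 and Hnrnph3 turned to 0.47 and 0.20, under the 1.27 of all genes. The ratio of Hnrnph1 to Hnrnpf was 0.283 and 0.254 in Itga6hi CD80pos, against 1.29 and 0.909 in Itga6low CD80neg. Hnrnpdl and Hnrnpd lie 54638 bases apart on the minus strand of chromosome 5 and encode related proteins. Hnrnpdl stood at 112 and 81.8 TPM in Itga6hi CD80pos, against 107 and 110.3 TPM in Itga6low CD80neg, and overlapped. It was 0.456 and 0.424 times the level of Hnrnpd in Itga6hi CD80pos, against 1.20 and 1.68 times in Itga6low CD80neg. Hnrnpll and its paralog Hnrnpl differed little in their ratio, at 0.114 and 0.134 in Itga6hi CD80pos against 0.157 and 0.151 in Itga6low CD80neg.

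**Figure D3:**
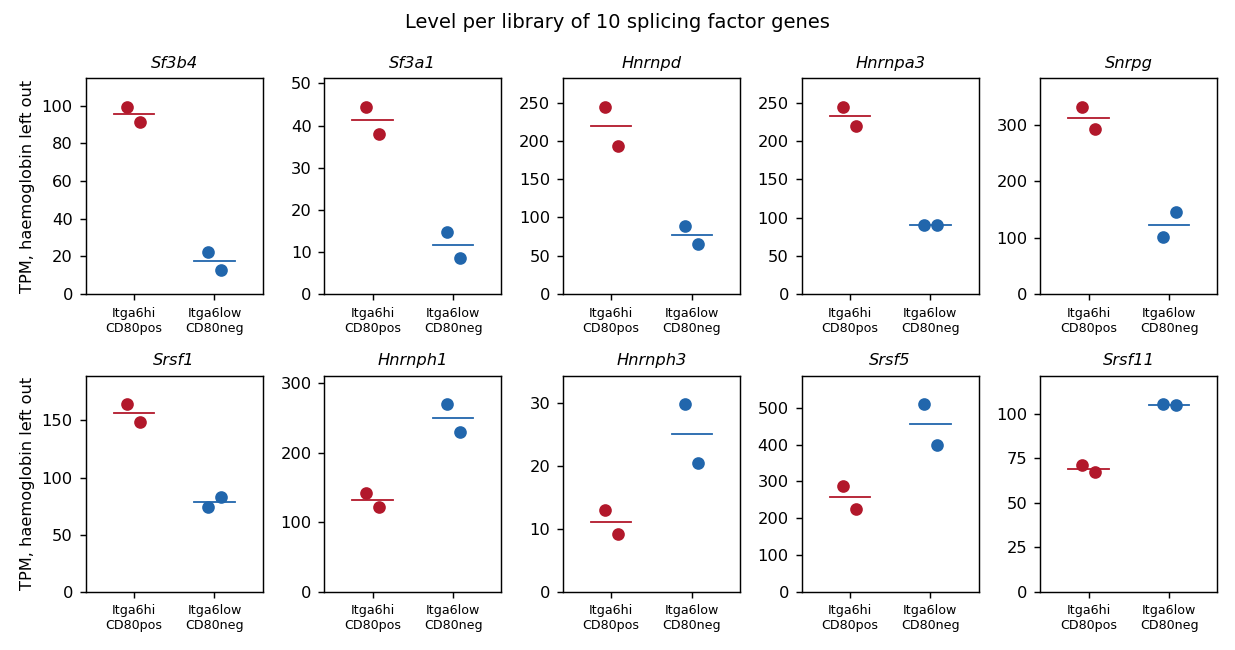
Level of 10 splicing factor genes in each library (points; y axis, TPM with haemoglobin left out, from 0; lines, means of 2), with Itga6hi CD80pos on the left of each panel and Itga6low CD80neg on the right. The upper row and Srsf1 are called higher, and the 4 genes Hnrnph1, Hnrnph3, Srsf5 and Srsf11 lie lower in both Itga6hi CD80pos libraries without a call.

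SR proteins showed the smallest shift of the families in median, at 0.53 on the log2 scale over 10 tested genes. Of these 2 rose and 0 fell, where 7.48% and 12.1% of all tested genes did. Srsf1, the founding member and a known oncogene, stood at 164 and 149 TPM in Itga6hi CD80pos, against 73.9 and 83.1 TPM in Itga6low CD80neg (0.99 ± 0.21, SE; limma adjusted p = 0.0383). Srsf2, which binds exonic enhancers, stood at 284 and 238 TPM in Itga6hi CD80pos, against 130.3 and 143 TPM in Itga6low CD80neg (0.93 ± 0.22, SE; limma adjusted p = 0.0471). Srsf3 and Srsf9 did not overlap between groups, at 286 and 247 TPM in Itga6hi CD80pos against 153 and 171 TPM in Itga6low CD80neg and at 109 and 100.2 TPM in Itga6hi CD80pos against 60.9 and 50.7 TPM in Itga6low CD80neg, and were not called (adjusted p = 0.0788 and 0.0513). Srsf4, Srsf6 and Srsf7 had non-overlapping higher values too, and Srsf10, a splicing repressor when it loses its phosphates, overlapped. Srsf5 (chr12:80945504-80950507, plus strand) stood at 288 and 225 TPM in Itga6hi CD80pos, against 509.7 and 400.0 TPM in Itga6low CD80neg (-0.82 ± 0.26, SE; adjusted p = 0.0886). It was the most abundant SR gene in both Itga6low CD80neg libraries, while in Itga6hi CD80pos its level lay near those of Srsf2 and Srsf3. Srsf11 stood at 71.3 and 67.0 TPM in Itga6hi CD80pos, against 105.3 and 104.7 TPM in Itga6low CD80neg (-0.60 ± 0.20, SE; adjusted p = 0.0972). On TPM as deposited the differences of Srsf5 and Srsf11 turned to 0.57 and 0.78, under the 1.27 of all genes. The ratio of Srsf5 to Srsf2 was 1.01 and 0.944 in Itga6hi CD80pos, against 3.91 and 2.80 in Itga6low CD80neg, and that of Srsf11 to Srsf1 was 0.434 and 0.450 in Itga6hi CD80pos, against 1.42 and 1.26 in Itga6low CD80neg. The SR sum was 1576 and 1372 TPM in Itga6hi CD80pos, against 1289 and 1236 TPM in Itga6low CD80neg.

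**Figure D4:**
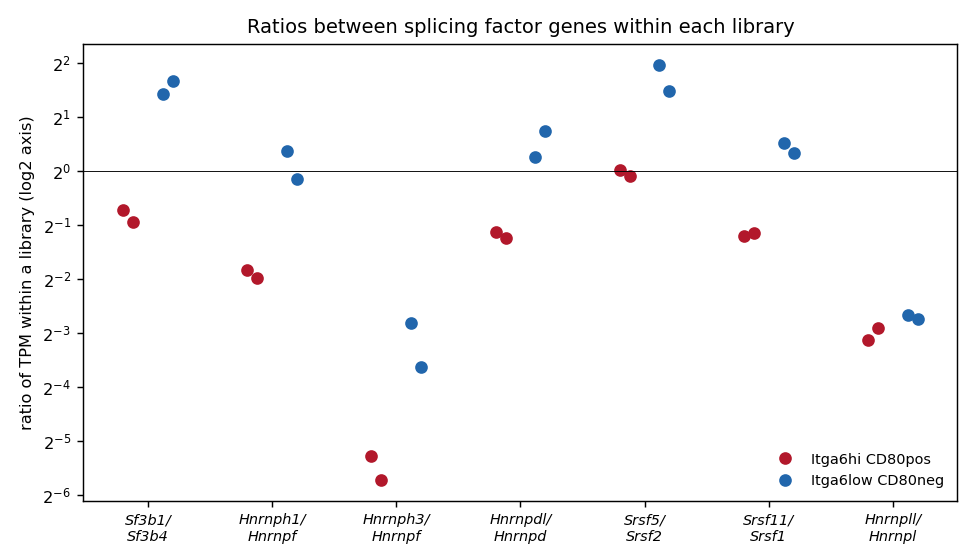
Ratio of TPM between pairs of splicing factor genes within each library (points; y axis on a log2 scale), with Itga6hi CD80pos on the left of each pair and Itga6low CD80neg on the right. In each of the first 6 pairs both Itga6hi CD80pos ratios lie below both Itga6low CD80neg ratios by a wide gap, and for Hnrnpll over Hnrnpl the gap is small (0.134 in Itga6hi CD80pos against 0.151 in Itga6low CD80neg at its closest). The pairs were chosen after the values were seen.

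**Figure D5:**
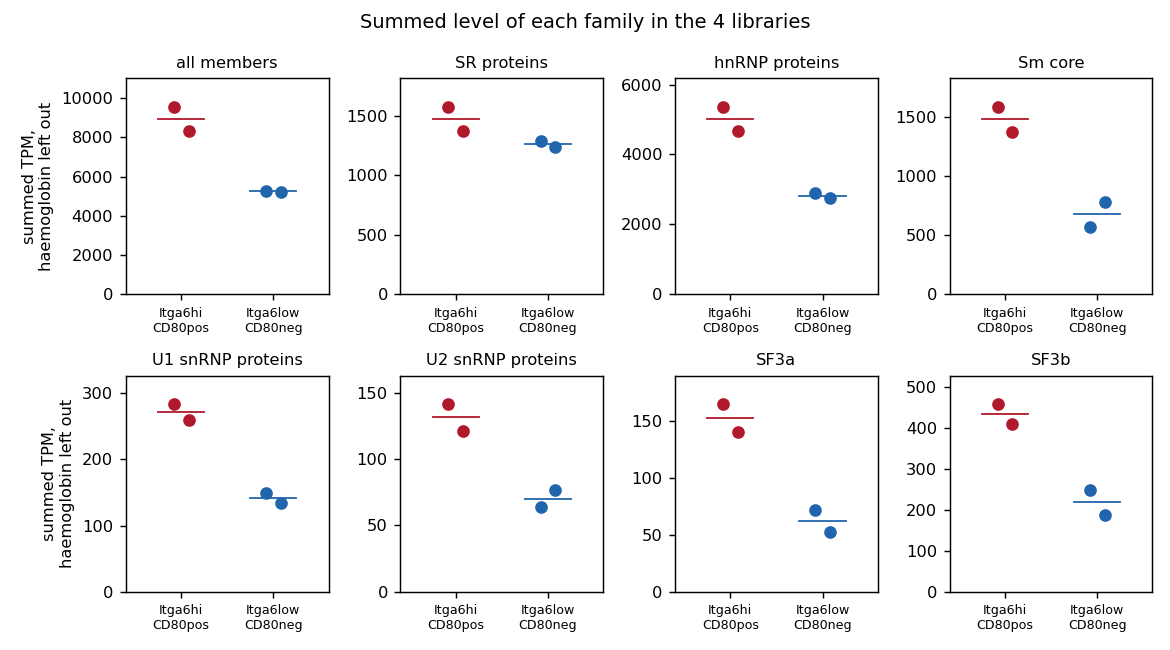
Summed TPM of each family in the 4 libraries (points; y axis from 0, haemoglobin left out; lines, means of 2), with Itga6hi CD80pos on the left. Every family sum is higher in both Itga6hi CD80pos libraries, and the SR sums lie closest as a ratio, with 1372 TPM in Itga6hi CD80pos against 1289 TPM in Itga6low CD80neg between the nearest libraries.

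The rest of the splicing machinery was read from 10 further lists of 153 genes. Of 147 tested, 28 rose and 3 fell (19% and 2.04%, where 7.48% and 12.1% of all tested genes were called), with a median log2 fold change of 0.54. On TPM as deposited 127 were higher, where 57% of all tested genes were. Proteins of single snRNPs and of the minor spliceosome rose in 6 of 30, among them Txnl4a and Prpf31 of the tri-snRNP and the peptidyl-prolyl isomerase Ppih. LSm proteins, some of which ring U6 RNA, rose in 3 of 10. They were led by Lsm2, at 63.3 and 56.3 TPM in Itga6hi CD80pos against 17.4 and 18.3 TPM in Itga6low CD80neg. Branch point and splice acceptor factors rose in 3 of 16: the helicase Ddx39a, U2af2, which reads the polypyrimidine tract, and Phf5a, an SF3b subunit with another name. For PRP19 complex and catalytic step factors, 5 of 25 were higher and 0 lower at an unadjusted limma p under 0.05. Over all tested genes 17.4% were higher and 21% lower at that threshold. After adjustment 3 of these 25 factors rose. The helicase Dhx16 stood at 149.6 and 112 TPM in Itga6hi CD80pos, against 27.0 and 28.7 TPM in Itga6low CD80neg (2.18 ± 0.24, SE; limma adjusted p = 0.0141), and Ppil1 and Prpf19 were the others. The exon junction complex had 2 of 9 higher, Rnps1 and Eif4a3. Genes that assemble and import snRNPs rose in 3 of 16: Wdr77, the partner of the methylase of Sm proteins, Smn1, the gene of the SMN protein that loads Sm rings, at 50.5 and 45.3 TPM in Itga6hi CD80pos against 17.6 and 17.1 TPM in Itga6low CD80neg, and the Sm chaperone Clns1a. hnRNP proteins under other symbols rose in 3 of 7, namely Ptbp1 (hnRNP I), Syncrip (hnRNP Q) and Pcbp1 (hnRNP E1).

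The kinases that phosphorylate SR proteins had 0 higher and 1 lower of 7 tested by limma, with 1 higher and 2 lower at an unadjusted p under 0.05, near the 17.4% and 21% of all tested genes. Clk1, which itself is subject to intron retention, stood at 70.8 and 63.4 TPM in Itga6hi CD80pos, against 159 and 187 TPM in Itga6low CD80neg (-1.35 ± 0.21, SE; limma adjusted p = 0.0237), with a difference of 0.03 on TPM as deposited. SR-related proteins had 0 of 7 called in either direction by limma, with 1 higher and 0 lower at an unadjusted p under 0.05, against the same shares of all tested genes. Regulators that differ between cell types went both ways, with 5 of 20 higher and 2 lower, Celf2 and Khdrbs3. Over all tested genes 7.48% were called higher and 12.1% lower. Esrp1 and Esrp2, splicing regulators of epithelial cells, stood at 90.0 and 78.9 TPM in Itga6hi CD80pos against 16.6 and 18.03 TPM in Itga6low CD80neg and at 93.9 and 64.5 TPM in Itga6hi CD80pos against 26.1 and 23.3 TPM in Itga6low CD80neg. Both rose (2.22 ± 0.23 and 1.62 ± 0.28, SE; limma adjusted p = 0.0128 and 0.0275). Celf2 fell to 0.365 and 0.25 TPM in Itga6hi CD80pos, against 37.3 and 7.05 TPM in Itga6low CD80neg, and Khdrbs3 fell to 0.941 and 2.84 TPM in Itga6hi CD80pos against 25.3 and 20.9 TPM in Itga6low CD80neg. Celf2 and Khdrbs3 passed the filter on low values only through Itga6low CD80neg, so their calls add no support. The keratinocyte and fibroblast marker sums given above moved the same ways as the Esrp genes and as Celf2 and Khdrbs3, and their part in these differences was not tested.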

How the data were processed

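The series measured polyA RNA of mouse skin squamous cell carcinoma cells, purified on Zymo Microprep columns and amplified with NEBNext reagents for low input, per the labels. The deposited values are TPM per gene, and kallisto 0.44.0 and mm10 are named in the submitters' processing notes. Annotation, strand setting and the summing of transcripts to genes are not given in the sources used here. TPM keep no read depth, so it is unknown and no limit from counts is given. Reads shared with related genes and pseudogenes were not resolved. Nor were those of the 19 members whose exons overlap a gene on the opposite strand in GENCODE M21 (GRCm38). The same holds for 4 members whose exons overlap a protein-coding gene on the same strand (Hnrnpm, Hnrnpul2, Snrpa1 and Snrpn).

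From the deposited TPM, 14 haemoglobin genes were left out, the rest was rescaled to 1000000, genes reaching 1 TPM in 2 or more libraries were kept, and log2(TPM + 1) was tested with limma 3.58.1 in R 4.3.3, with 2 residual and 2.72 prior degrees of freedom. The fold changes are on that scale and understate changes of low genes. The procedure was run on simulated data with independent noise of equal spread in both groups. That run does not show whether the calls on the real libraries are reliable. Every member may be named, with up to 3 called genes per further list by absolute fold change, Esrp1 and Esrp2, the most abundant gene of marker lists, and Itga6 and Cd80. The members and lists were chosen with earlier results of these data known. Marker lists whose genes are not named above (neutrophils, macrophages, lymphocytes, endothelium, muscle) held 0 higher genes, and 1, 3, 1, 0 and 3 lower ones. Alternatives were pseudocounts of 0.1 and 5, no filter, a mean of at least 5 TPM, 4 other scalings, each library left out and a replicate block. Gene positions come from GENCODE M21 and promoter windows from RefSeq GRCm38.p6.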

Additional observations from a re-analysis of the deposited data

How the results depend on the processing

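Of the alternatives, a pseudocount of 5 left 11 members higher and no filter on low values left 0, where 5.48% and 0.0326% of all tested genes were. TPM as deposited gave 45, all 18 of the reported ones among them, where 57% of all tested genes were higher. Median-of-ratios scaling gave 15, of which 9 were among the 18, where 9.53% of all tested genes were higher. Quantile normalization gave 19 (15 shared), where 11.8% of all tested genes were. Leaving out 4 gene classes gave 27 (18 shared) and a mean of at least 5 TPM 15 (15 shared), where 12.7% and 8.33% were. Leaving out single libraries gave 0 to 20 members higher and 0 to 2 lower. The lower calls were 1 with a pseudocount of 0.1 (Hnrnph1), 1 with the replicate block (Snrpn), and both genes without Itga6low CD80neg replicate 2. In the further lists, no filter left 0 genes higher and 0 lower, TPM as deposited gave 127 higher, a pseudocount of 0.1 gave 5 lower, and leaving out single libraries gave 0 to 34 higher and 0 to 7 lower. The 127 on TPM as deposited stand beside 57% of all tested genes that were higher there. The cause of these changes was not tested.

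Directions turned on TPM as deposited for Hnrnph1 (0.47), Hnrnph3 (0.20), Srsf5 (0.57), Srsf11 (0.78), Hnrnpdl (1.19) and Clk1 (0.028), none of them called there. Hnrnpdl turned to 0.061 with 4 gene classes left out, and with single libraries left out it ran between -0.41 and 0.036, turning without Itga6hi CD80pos replicate 2. Sf3b1 ran between -0.14 and 0.38, turning to -0.05 without Itga6hi CD80pos replicate 1 and to -0.14 without Itga6low CD80neg replicate 2.

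Over all genes the 1090 higher and 1765 lower calls became 799 and 1096 with a pseudocount of 5, 10 and 112 with no filter, 863 and 1033 at a mean of at least 5 TPM, 7686 and 1277 as deposited, 1908 and 1868 with 4 gene classes left out, and 0 to 1744 and 0 to 2952 with single libraries left out. The median of all genes was 1.27 as deposited, 0.31 after quantile normalization, 0.27 with 4 gene classes left out and 0.16 after median-of-ratios scaling, against 0.08.

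Replicate numbers pair the libraries only by name. Deviations of same-numbered libraries from their group means correlated at 0.106 over 14572 genes. With 2 libraries per group the deviations are equal and opposite, so the 2 pairs give the same value. It cannot tell whether the libraries were paired. With the replicate number as a block 14 members were higher, 11 of them among the 18, and 29 genes of the further lists were higher and 4 lower. Over all genes 1247 were higher and 2226 lower, or 8.56% and 15.3%.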

Other observations

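Annotation of the members gave no clear order of their fold changes. Over the 51 tested genes, as a description, the log2 fold change had Pearson's r = -0.23 and Spearman's rho = -0.25 with the number of annotated transcripts, -0.05 and -0.11 with the number of retained-intron transcripts and -0.03 and -0.08 with the length of the longest coding transcript, each on a log2 scale. The number of transcripts annotated to undergo nonsense-mediated decay gave r = -0.16 and rho = -0.26 on the same scale. Mean TPM over the groups, which is not annotation, gave r = 0.29 and rho = 0.18. The genes share their libraries and are not independent. The median number of annotated transcripts was 4.5 among the 18 genes called higher, 5 among the 27 others with a log2 fold change above 0, and 9.5 among the 6 below 0. Hnrnph1, the member below 0 with the adjusted p nearest the threshold, has 18 annotated transcripts in GENCODE M21 and Srsf11 has 19, while Hnrnpk, which was not called, has the most, 34.

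The members lie on 18 chromosomes. Besides Hnrnpd and Hnrnpdl, members within 1000000 bases of each other were Hnrnpa0 and Hnrnpk on chromosome 13, Hnrnpll and Srsf7 on chromosome 17, and Srsf10 and Hnrnpr on chromosome 4. In each of these 3 pairs at most 1 gene was called.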
